A study of Mus musculus with 4 samples.

Results

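The 9 genes described here are the transcription factors of mesenchyme and of epithelial to mesenchymal transition (EMT), Twist1, Twist2, Prrx1, Prrx2, Snai1, Snai2, Zeb1 and Zeb2, together with Vim, which encodes the intermediate filament vimentin. They were taken by symbol, each matched 1 row, and they are 9 of the 24771 features with RNA-seq values in PSC-derived salivary gland (SG) placodes and mouse embryonic submandibular glands (SMGs). The placodes were aggregates of the mouse ES cell line 129w2, plated with 3000 cells in each well, kept with 2% growth factor reduced Matrigel, given BMP4 at 2 ng/ml on day 3, retinoic acid (RA) at 1 μM with bFGF at 25 ng/ml on day 4 and then, on day 6, FGF10 (200 ng/ml), and collected on day 10. The SMGs came from E12.5 mouse embryos, whose strain, number per sample and dissection are not given in the sources used here, so the share of epithelium and mesenchyme in that tissue is unknown. Each group had 2 samples, and nothing states whether they came from separate cultures or litters, so p-values measure only the spread between these samples. The comparison asks how a set of genes that the embryonic gland expresses largely in its mesenchyme was represented in aggregates described as epithelial placodes.

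In EMT, epithelial cells lose their junctions and polarity and become migratory. Snail (Snai1, Snai2) and Zeb proteins are zinc finger repressors that bind E-boxes of the form CAGGTG in the promoters of epithelial genes, and Twist proteins are basic helix-loop-helix factors that act as dimers with E proteins. In the embryo the same factors are used where cells are already mesenchymal. Twist1, Twist2, Prrx1 and Prrx2 mark the mesenchyme of the face and limbs, including the neural crest-derived mesenchyme that surrounds the salivary bud, while Zeb1, Zeb2 and Vim are also expressed by neural progenitors.

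Of the 8 transcription factors, 6 were lower in the placodes, and the other two, Zeb1 and Zeb2, were higher, as was Vim. By limma's test on log2(FPKM + 1), with Benjamini-Hochberg adjustment over 13193 tested features, all 9 genes had an adjusted p below 0.05, where 76.2% of the tested features did. The 6 that fell did so by at least 2-fold, against 15.2% of features lower by as much, and 0 of the 3 that rose reached 2-fold, against 14.1% (29.4% in either direction). The samples of the groups overlapped for none of the 9 genes, where 88.4% of the features did not overlap. Each of the 9 genes had at least 1 FPKM in all 4 samples, so none passed the filter on low values, a mean of at least 1 FPKM, through 1 group alone. The median log2 fold change (placode minus SMG) of the 9 genes was -1.51, and that of all tested features was -0.05. FPKM is scaled to transcript length, so levels can be compared between genes. In whole aggregates or glands, fewer cells of a type and less RNA per cell cannot be told apart. No depth, date or batch is given with these values, and a batch that follows the groups cannot be told apart from them.

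**Figure D1:**
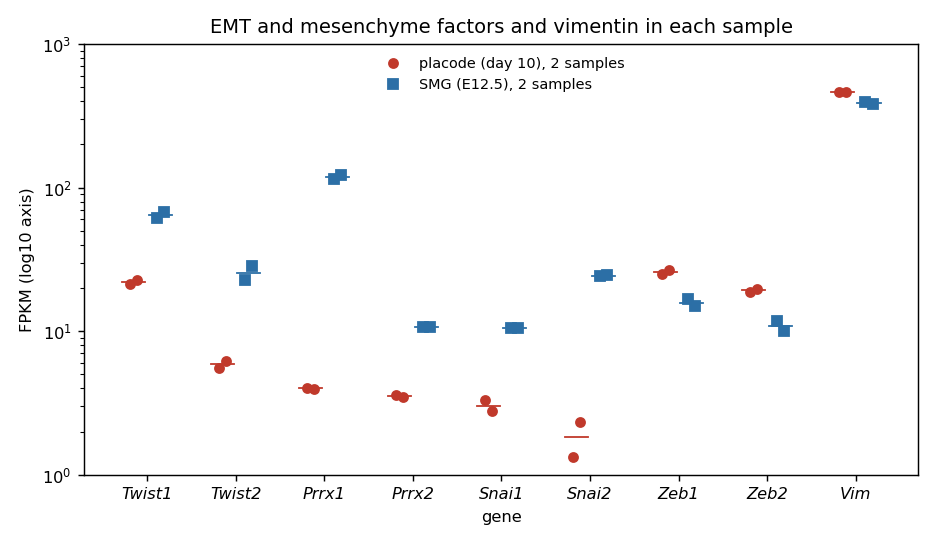
FPKM (log10 axis) of the 9 genes in the 2 placode samples (circles) and the 2 SMG samples (squares), with a bar at each group's mean. The groups overlap for none of the 9 genes, Prrx1 and Snai2 lie farthest apart, and Vim lies closest together.

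Prrx1, a paired-related homeobox factor of craniofacial and limb mesenchyme, fell the most. It stood at 4.05 and 3.94 FPKM in placodes versus 115 and 122 FPKM in SMGs, so both placode samples lay far below both glands. The ratio of the mean FPKM was 29.6-fold, and the log2 fold change was -4.58 (standard error 0.06, limma adjusted p = 1.09e-07). The gene lies on chromosome 1 of GRCm38 from 163245119 to 163313710. In the glands it was the most abundant of the 8 factors and ranked 390th of all features by mean FPKM, whereas in the placodes it ranked 9855th.

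Its paralogue Prrx2 was less abundant in the glands and had a smaller fold change. Prrx2 stood at 3.57 and 3.50 FPKM in placodes versus 10.7 and 10.6 FPKM in SMGs (log2 fold change -1.37, SE 0.08, limma adjusted p = 1.56e-05). The 2 homeobox genes were therefore at similar levels in the placodes, at a Prrx1 to Prrx2 FPKM ratio of 1.14 and 1.12, but at 10.7 and 11.5 in the glands.

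The Twist genes kept a larger part of their gland level than Prrx1 did. Twist1, on chromosome 12 of GRCm38 from 33957671 to 33959829, stood at 21.2 and 22.8 FPKM in placodes versus 61.5 and 67.5 FPKM in SMGs. Its mean in the placodes was 34.1% of that in the glands (log2 fold change -1.51, standard error 0.07, limma adjusted p = 4.93e-06). Twist2, which is expressed in dermal and craniofacial mesenchyme, stood at 5.58 and 6.20 FPKM in placodes versus 22.7 and 28.4 FPKM in SMGs. Its mean in the placodes was 23.0% of that in the glands, and the samples of the 2 groups did not overlap (log2 fold change -1.94, standard error 0.12, limma adjusted p = 1.69e-05). Exons of Twist2 overlap the antisense gene Gm29100, which was not analysed here, and the library kit is not stated to keep strand, so reads of the pair cannot be told apart.

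Both Snail genes fell, with the larger fold change in Snai2. Snai2, also known as Slug and known from migrating neural crest and mesenchyme, stood at 1.33 and 2.34 FPKM in placodes versus 24.1 and 24.5 FPKM in SMGs (log2 fold change -3.18, SE 0.17, limma adjusted p = 1.00e-05). It was the lowest of the 9 genes in the placodes, and its placode samples differed more from each other than those of any other of these genes did on the log2 scale. Snai1, a direct repressor of E-cadherin in EMT, stood at 3.29 and 2.78 FPKM in placodes versus 10.6 and 10.5 FPKM in SMGs. The ratio of its mean FPKM was 3.47-fold, with a log2 fold change of -1.52 (standard error 0.10, limma adjusted p = 2.31e-05).

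The Zeb genes moved the other way. Zeb1 stood at 24.9 and 26.5 FPKM in placodes versus 16.7 and 14.99 FPKM in SMGs (log2 fold change 0.67, SE 0.07, limma adjusted p = 2.51e-04). Zeb2 stood at 18.9 and 19.6 FPKM in placodes versus 11.7 and 10.1 FPKM in SMGs (log2 fold change 0.77, SE 0.08, limma adjusted p = 2.69e-04). Both placode samples lay above both gland samples for each gene, at a mean of 162% and 176% of the gland level. Zeb2 shares exonic bases with 3 other annotated genes, among them its antisense gene Zeb2os, and Zeb1 with 1.

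Vim was abundant in both groups and differed least of the 9 genes. It stood at 466 and 461 FPKM in placodes versus 393 and 383 FPKM in SMGs, which placed it 79th of all features in the placodes and 97th in the glands by mean FPKM. The placode mean was 1.19 times the gland mean (log2 fold change 0.26, standard error 0.06, limma adjusted p = 5.82e-03). The samples did not overlap, but the call was lost without placode sample 1, where the log2 fold change was 0.25 with an adjusted p of 0.0547. Vim lies on chromosome 2 of GRCm38 from 13573927 to 13582826.

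The order of the levels differed between the groups. In the glands it ran Vim, Prrx1, Twist1, Twist2, Snai2, Zeb1, Zeb2, Prrx2 and Snai1. The samples of Twist2 and Snai2 overlapped there, as did those of Zeb2 and Prrx2, so these neighbours were not separated beyond their spread. In the placodes the order was Vim, Zeb1, Twist1, Zeb2, Twist2, Prrx1, Prrx2, Snai1 and Snai2, with no overlap between neighbours. Zeb1 thus led the factors in the placodes and Prrx1 in the glands.

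The 8 factors summed to an FPKM of 82.7 and 87.7 in placodes versus 273 and 289 in SMGs. Zeb1 and Zeb2 held 52.9% and 52.6% of that sum in placodes and 10.4% and 8.68% in glands. The 4 Twist and Prrx genes held 41.5% and 41.6% in the placodes and 76.9% and 79.2% in the glands, most of it in the glands from Prrx1, with a mean of 42.2%. Twist1 held a like share in both, with means of 25.8% in the placodes and 23.0% in the glands. The Snail genes held the least in the placodes, at 5.59% and 5.84%.

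**Figure D2:**
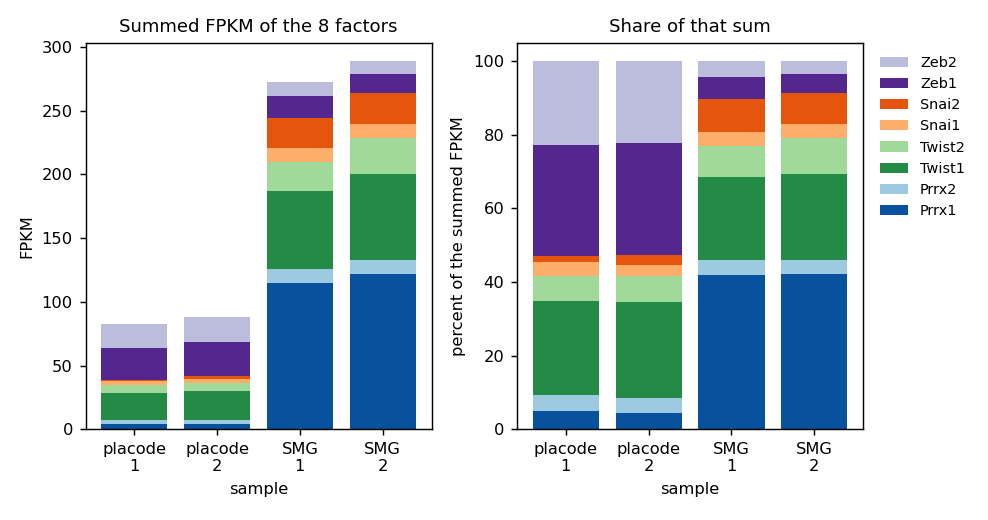
Summed FPKM of the 8 transcription factors in each sample (left, stacked by gene) and each gene's percent of that sum (right). The sum is 82.7 and 87.7 in the placodes and 273 and 289 in the SMGs, and the Zeb genes take over 52% of it in the placodes and under 11% in the SMGs.

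Within-sample ratios of paralogues were compared because the scaling of a sample cancels in them, apart from the added 1. On the log2 ratio of FPKM + 1, Prrx1 to Prrx2 was 0.15 and 0.13 in placodes versus 3.30 and 3.40 in SMGs, a difference of -3.21. Snai2 to Snai1 was -0.88 and -0.18 against 1.12 and 1.15, so that Snai2 was the lower of the Snail genes in both placode samples and the higher in both glands. Twist1 to Twist2 differed less, at 1.75 and 1.73 against 1.40 and 1.22. Zeb2 to Zeb1 was -0.38 and -0.42 against -0.47 and -0.53, a difference of 0.10. The groups did not overlap for any of the 4 pairs, and the exact two-sided permutation test gave p = 0.33 for each, which is the smallest value that 2 samples against 2 allow.

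**Figure D3:**
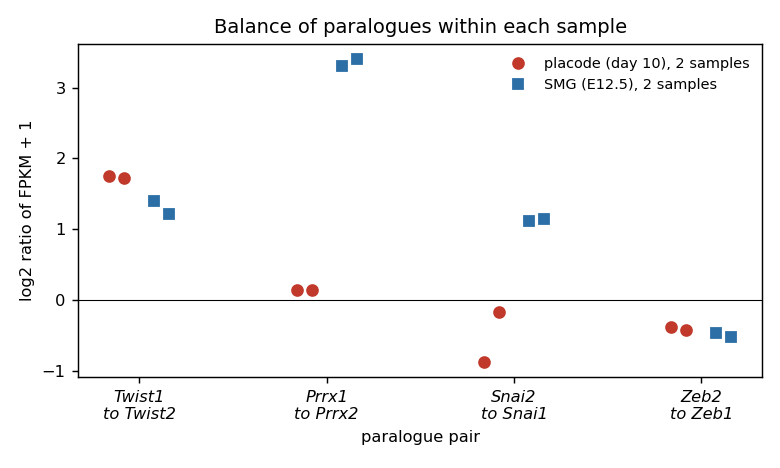
Log2 ratio of FPKM + 1 between the genes of 4 paralogue pairs within each sample, with placodes as circles and SMGs as squares. Prrx1 to Prrx2 drops from 3.30 and 3.40 in the SMGs to 0.15 and 0.13 in the placodes, while Zeb2 to Zeb1 differs by 0.10 between the group means.

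Read sharing between these genes was examined with words of 50 bases from the GENCODE M21 transcripts. No word of one of the 9 genes occurred in another of the 9. Twist1, Prrx2, Snai1 and Vim shared no word with any other gene on either strand, and Twist2 shared 45.7% of its words with other genes.

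To place these genes among other mesenchymal genes, 20 genes of the mesenchymal matrix and cell surface were counted. Of the 19 tested, 18 were lower in the placodes and 1 was higher, where 40.4% and 35.7% of all tested features were lower and higher. Their median log2 fold change was -2.17, and their summed FPKM in the placodes was 19.7% of that in the glands. The collagen gene Col1a2 stood at 34.3 and 31.7 FPKM in placodes versus 482 and 464 FPKM in SMGs. Dcn, which encodes the proteoglycan decorin, fell by 3.83 on the log2 scale (limma adjusted p = 2.22e-07), and Pdgfra, a growth factor receptor of mesenchyme, fell by 3.71 on that scale (adjusted p = 4.39e-07). Thy1 fell least of the list, with a log2 fold change of -0.48 (adjusted p = 6.68e-03). The decline of Prrx1 was greater than that of every tested gene of this list, and those of Twist1, Prrx2 and Snai1 were smaller than those of 15 of the 19.

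The exception in that list was Cdh2, the gene for N-cadherin, which is carried by mesenchyme after EMT and also by neural epithelium. Cdh2 stood at 102 and 106 FPKM in placodes versus 23.0 and 21.1 FPKM in SMGs (log2 fold change 2.19, SE 0.06, limma adjusted p = 7.64e-07). With Zeb1, Zeb2 and Vim it was thus among the EMT genes that were higher in the placodes, while Fn1, which encodes fibronectin, was lower, with a log2 fold change of -1.94 (adjusted p = 5.50e-07).

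Of 23 other transcription factors of mesenchyme, 16 were tested, 10 were lower, 3 were higher and 3 were not called. Over all tested features, 40.4% were lower and 35.7% were higher. Only 6 of the 16 had a mean of at least 1 FPKM in both groups, and 4 of these were lower and 0 higher. Barx1, a homeobox factor of the mesenchyme of the jaw, stood at 0.862 and 0.807 FPKM in placodes versus 219 and 229 FPKM in SMGs, a log2 fold change of -6.94 (limma adjusted p = 4.10e-08). Barx1 passed the filter through the glands alone, so it could only be lower. Osr1 was at 3.14 and 2.64 against 107 and 117. The 3 that were higher, Hand1, Alx1 and Tbx15, had log2 fold changes of 1.80, 1.75 and 1.74. Their SMG means were 0.220, 0.270 and 0.789 FPKM, so they passed the filter through the placodes alone and could only be higher. They were at most 5.04 FPKM in any sample, and 0 of them were tested at a mean of at least 5 FPKM. Tcf15, a bHLH factor of somites in the same family as Twist, stood at 12.99 and 12.48 FPKM in placodes versus 15.9 and 12.6 FPKM in SMGs (adjusted p = 0.264), and those groups overlapped.

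The genes whose values over the 4 samples were closest to those of Prrx1, by Euclidean distance of log2(FPKM + 1), were Selenop, Nid2 and Osr1, at distances of 0.39, 0.41 and 0.54. Those closest to Twist1 were Pofut2, Tspan9 and Sp3, at 0.17, 0.19 and 0.28. Slc7a6, Bcl11a and Rfxap were closest to Zeb2, at 0.07, 0.10 and 0.13, and Hnrnpab, Rpl5 and Ybx1 to Vim, at 0.05, 0.09 and 0.15. With 2 groups of 2 samples this measure reflects the level in each group.

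**Figure D4:**
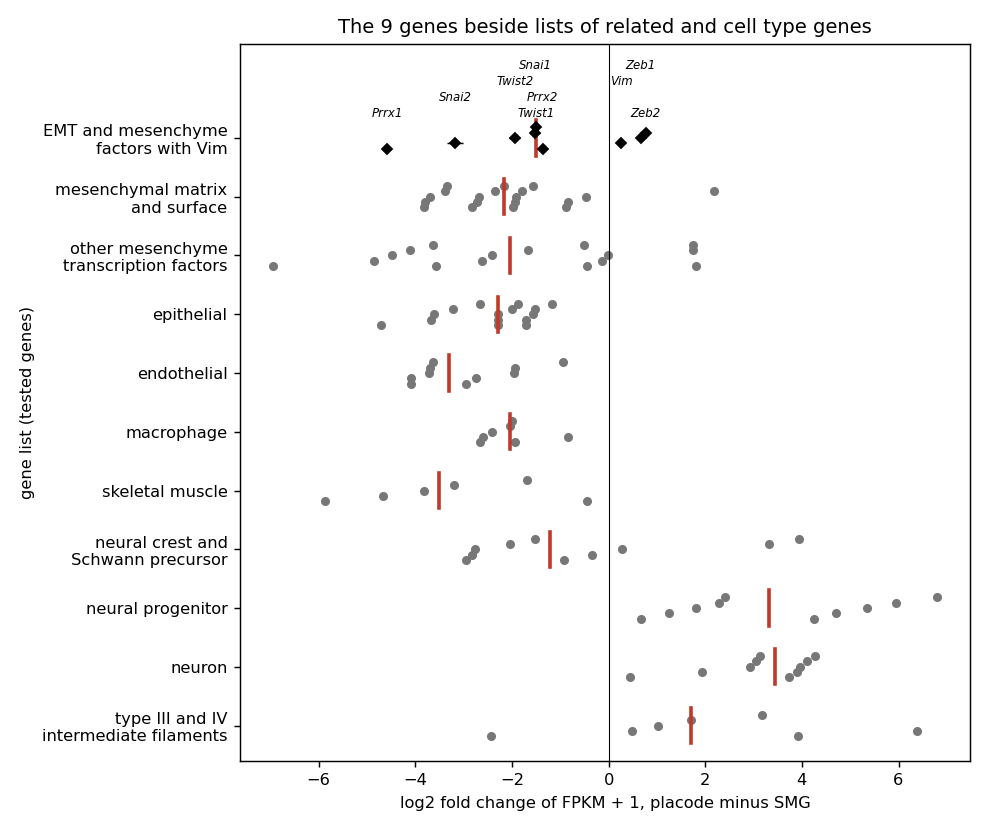
Log2 fold changes of FPKM + 1 (placode minus SMG) of the tested genes in 11 lists, 1 point per gene and a vertical bar at each list's median, with standard errors on the 9 genes described here (diamonds). The 9 genes run from -4.58 (Prrx1) to 0.77 (Zeb2), the mesenchymal, epithelial, endothelial and muscle lists lie mostly below 0, and the neural progenitor and neuron lists lie above it.

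Epithelial genes are the classical targets of Snail, Zeb and Twist repression, and their regulation by these factors was not tested. Of 18 epithelial genes, 15 were tested and called at least 2-fold lower, against 15.2% of all tested features. But 8 of these had a placode mean below 1 FPKM and passed the filter through the glands alone, so that they could only be lower. The 7 with a mean of at least 1 FPKM in both groups were all called lower, where 40.4% of all tested features were. The summed FPKM of the 18 genes was 27.1 and 29.7 in placodes versus 274 and 252 in SMGs. Epcam, an adhesion molecule of simple epithelia, stood at 1.75 and 2.69 FPKM in placodes versus 87.2 and 78.8 FPKM in SMGs (log2 fold change -4.72, standard error 0.14, limma adjusted p = 1.02e-06). Cdh1, which encodes E-cadherin, was at 1.11 and 1.18 against 28.2 and 24.7. Esrp1, an epithelial splicing regulator, was at 0.418 and 0.411 against 16.6 and 15.9, and is among the 8 that could only be lower. Jup, which encodes plakoglobin, fell by 1.52 on the log2 scale (limma adjusted p = 2.71e-06). In the placodes 7 of the 18 genes had an FPKM of at least 1 in both samples, and in the glands 17 did. The aggregates were sequenced whole, and the level that their epithelium alone would give is unknown. With a mean FPKM of at least 5 required, the number called lower was 7, since fewer genes were tested.

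The promoters of these genes were searched for CAGGTG, the E-box of Snail and Zeb proteins, on both strands (CACCTG on the other), in windows of 300 bases that hold 250 bases before and 50 after a start site, from RefSeq on GRCm38.p6. CAGGTG is 1 form of the general E-box CANNTG, so the matches to the 2 overlap. The letters were present in 20.2% of 32851 windows and in at least 1 window of 22.6% of the genes. Of the 10 epithelial genes in the table, 8 had them (Cldn3, Cldn4, Cldn7, Crb3, Dsp, Epcam, Ocln and Rab25), and Jup and Ovol2 did not. Of 10 mesenchymal matrix and surface genes in the table, 1 (Sparc) did. Cdh1, Cdh3, Esrp1, Esrp2, Grhl2, Ovol1, Pkp3 and St14 were the epithelial genes that were not searched. Not shown are a window of Cldn7, which was called lower, and another of Ocln, which was not tested, each with 2 matches. The following windows are examples from other epithelial genes that were lower in the placodes. Each holds 2 or more matches, given in capitals on the strand of the gene. The windows lie at chr17:87635729-87636028 (+) for Epcam, chr17:57061951-57062250 (+) for Crb3, chr5:134946885-134947184 (-) for Cldn4 and chr3:88548230-88548529 (-) for Rab25.
Epcam: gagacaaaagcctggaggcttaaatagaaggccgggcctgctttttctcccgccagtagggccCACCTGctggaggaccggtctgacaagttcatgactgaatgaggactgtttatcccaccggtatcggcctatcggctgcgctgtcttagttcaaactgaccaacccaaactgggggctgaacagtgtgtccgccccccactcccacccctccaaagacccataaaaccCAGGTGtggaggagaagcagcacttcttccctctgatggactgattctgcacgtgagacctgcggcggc
Crb3: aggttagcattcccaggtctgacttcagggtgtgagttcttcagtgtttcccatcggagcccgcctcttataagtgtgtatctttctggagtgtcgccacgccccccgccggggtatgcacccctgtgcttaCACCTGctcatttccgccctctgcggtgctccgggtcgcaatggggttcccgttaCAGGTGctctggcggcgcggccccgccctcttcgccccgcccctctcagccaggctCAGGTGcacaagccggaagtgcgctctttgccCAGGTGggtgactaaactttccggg
Cldn4: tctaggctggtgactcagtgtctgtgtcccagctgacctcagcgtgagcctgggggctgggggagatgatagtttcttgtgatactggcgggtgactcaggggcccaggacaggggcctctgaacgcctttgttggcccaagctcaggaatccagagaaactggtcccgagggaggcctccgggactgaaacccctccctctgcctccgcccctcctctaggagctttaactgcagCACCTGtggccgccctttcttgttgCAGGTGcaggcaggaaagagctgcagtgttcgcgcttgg
Rab25: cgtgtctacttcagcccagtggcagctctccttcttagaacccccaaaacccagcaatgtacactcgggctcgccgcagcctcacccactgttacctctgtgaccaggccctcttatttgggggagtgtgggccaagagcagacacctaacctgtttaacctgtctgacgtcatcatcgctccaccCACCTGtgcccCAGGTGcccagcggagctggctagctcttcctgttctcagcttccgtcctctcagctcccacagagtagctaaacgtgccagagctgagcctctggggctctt
Crb3, which encodes a polarity protein of the apical membrane, held 4 matches in its window, and the other three held 2 each. In Epcam the match nearest to the start site began 19 bases before it. The tight junction gene Cldn4 stood at 2.27 and 2.02 FPKM in placodes versus 31.3 and 25.9 FPKM in SMGs, Crb3 was at 0.436 and 0.328 against 1.80 and 2.42, and Rab25, which encodes a recycling GTPase of epithelia, at 0.296 and 0.378 against 3.39 and 2.55. Crb3 and Rab25 had a placode mean below 1 FPKM and passed the filter through the glands alone, so they could only be lower. For Cldn4 both placode samples lay below both glands, where the groups did not overlap for 88.4% of all tested features. A match gives only the letters, and binding was not measured.

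Of the genes described here, Twist1, Twist2, Prrx1, Prrx2, Snai1, Zeb2 and Vim were in the promoter table, with 10 windows in all. Only the window of Snai1 held CAGGTG, and it was also the only one of the 10 with any CANNTG, a form that 72.3% of all windows hold. Several of the 10 windows belong to Zeb2, and some of those overlap each other. By gene, 1 of the 7 held any CANNTG, against 75.0% of all genes with a window. The match in the window of Snai1 began 126 bases before the start site. It is shown because Snail proteins bind these letters, beside the window of Prrx1, the gene that fell the most, which has none. They lie at chr2:167537945-167538244 (+) for Snai1 and chr1:163313601-163313900 (-) for Prrx1.
Snai1: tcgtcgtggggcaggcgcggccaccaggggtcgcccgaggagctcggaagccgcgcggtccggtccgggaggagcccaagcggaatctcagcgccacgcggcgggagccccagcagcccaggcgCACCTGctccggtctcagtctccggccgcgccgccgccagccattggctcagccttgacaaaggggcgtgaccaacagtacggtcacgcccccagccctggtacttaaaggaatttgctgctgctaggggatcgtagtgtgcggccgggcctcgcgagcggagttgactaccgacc
Prrx1: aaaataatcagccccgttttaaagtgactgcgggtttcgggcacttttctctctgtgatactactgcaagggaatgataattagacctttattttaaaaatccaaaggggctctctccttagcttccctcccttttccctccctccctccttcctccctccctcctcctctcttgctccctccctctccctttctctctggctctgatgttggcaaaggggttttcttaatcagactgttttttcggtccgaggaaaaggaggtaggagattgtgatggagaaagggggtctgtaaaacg
The GC content of these windows was 70.0% for Snai1 and 47.7% for Prrx1.

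Of 7 genes for E proteins and Id proteins, 3 were higher in the placodes, 2 were lower and 2 were not called, shares near those over all tested features (35.7% higher and 40.4% lower). E proteins, the dimer partners of Twist, are opposed by Id proteins, which bind E proteins and cannot bind DNA. Of the 3 E protein genes, Tcf3 stood at 87.5 and 87.4 FPKM in placodes versus 143 and 144 FPKM in SMGs (log2 fold change -0.71, SE 0.04, limma adjusted p = 2.02e-05). Tcf4 was not called (-0.03 on that scale, adjusted p = 0.840), and neither was Tcf12 (0.05, adjusted p = 0.344). Of the Id genes, Id2, Id3 and Id4 were higher in the placodes and Id1 was lower. Id4, which is expressed in neural progenitors, stood at 21.1 and 20.9 FPKM in placodes versus 2.28 and 2.19 FPKM in SMGs (log2 fold change 2.76, standard error 0.08, adjusted p = 7.93e-07). Id2 was at 88.1 and 62.6 against 28.0 and 30.4, with the wider spread in the placodes.

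Of 21 genes for corepressors and regulators of the Snail and Zeb proteins, 11 were higher, 8 were lower and 2 were not called, with a median log2 fold change of 0.15, where 35.7% of all tested features were higher and 40.4% were lower. In each direction 1 of the 21 passed 2-fold, against 14.1% of features higher and 15.2% lower. Ctbp1 and Ctbp2 encode the corepressors that Zeb proteins recruit, and both rose, by 0.59 and 0.61 on the log2 scale (limma adjusted p = 1.21e-04 and 6.45e-04). Kdm1a, the histone demethylase that Snail recruits, stood at 98.6 and 100.7 FPKM in placodes versus 53.3 and 48.9 FPKM in SMGs. Gsk3b, whose kinase marks Snail for degradation, was at 50.2 and 51.2 against 18.4 and 17.9. The LIM protein gene Wtip fell the most, with a log2 fold change of -1.24 (adjusted p = 9.83e-05).

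**Figure D5:**
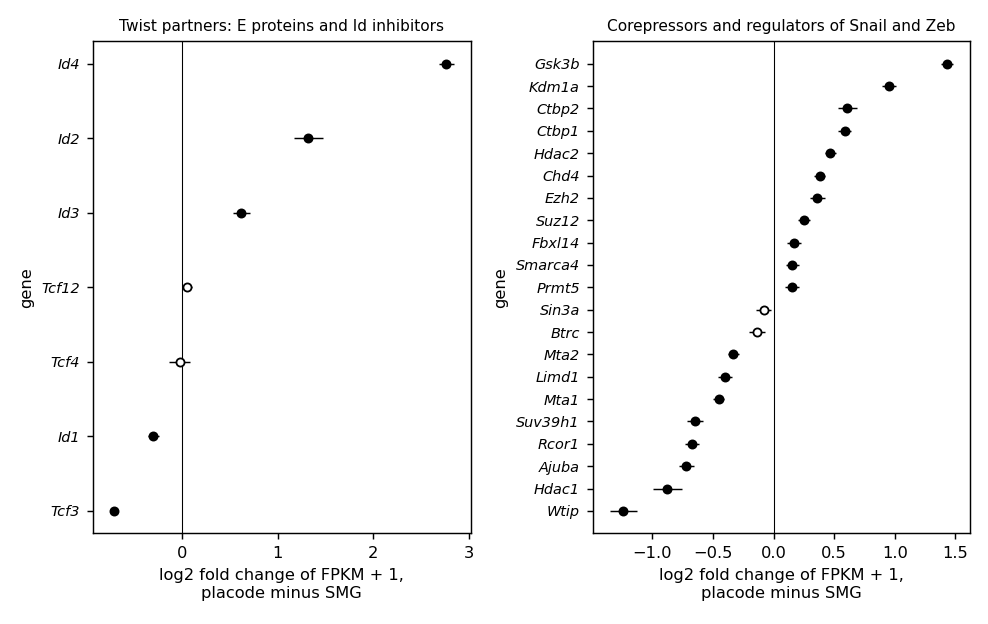
Log2 fold changes of FPKM + 1 (placode minus SMG) with standard errors for E protein and Id genes (left) and for corepressors and regulators of Snail and Zeb proteins (right), with filled points at an adjusted p below 0.05. Id4 is highest on the left at 2.76, and the genes on the right run from -1.24 (Wtip) to 1.43 (Gsk3b).

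TGF-beta signalling is a main inducer of Snail and Zeb genes. Of 12 genes of this signalling and of related inducers, 7 were lower, 2 were higher and 3 were not called, so that the share called was near the 76.2% over all tested features. Tgfbr2, the type II receptor, stood at 0.992 and 1.45 FPKM in placodes versus 16.2 and 16.4 FPKM in SMGs (log2 fold change -2.97, limma adjusted p = 3.39e-06), while Tgfbr1, the type I receptor, was at 62.5 and 64.8 against 39.4 and 39.5. The ligand gene Tgfb1 was at 0.544 and 0.673 against 5.67 and 6.27. Tgfb1 had a placode mean below 1 FPKM and passed the filter through the glands alone, so it could only be lower. Of the 11 genes with a mean of at least 1 FPKM in both groups, 6 were lower and 2 were higher. The receptors thus differed in opposite directions, and the signal transducers Smad2 and Smad4 were among the genes not called.

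Of 4 relatives of the Snail and Twist genes, 2 were tested and both were higher in the placodes, against 35.7% of all tested features. Of these, Scrt2 passed the filter through the placodes alone. Scrt1 and Scrt2, the Scratch genes, belong to the Snail superfamily and are expressed in newborn neurons. Scrt2 stood at 61.0 and 58.3 FPKM in placodes versus 0.0892 and 0.0453 FPKM in SMGs, and Scrt1 at 59.0 and 58.5 against 0.832 and 1.26 (log2 fold change 4.88, standard error 0.11, limma adjusted p = 4.37e-07). Both were above every Snail, Zeb, Twist and Prrx gene in the placodes. Snai3, the remaining Snail gene, had 0 in either placode sample, and 0.153 and 0.303 FPKM in the glands.

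Other intermediate filaments of types III and IV were higher in the placodes in 6 of 7 tested cases, where 35.7% of all tested features were. Ina, the gene for alpha-internexin of neurons, stood at 224 and 236 FPKM in placodes versus 1.90 and 1.62 FPKM in SMGs. Nes, which encodes nestin and is often made together with vimentin in neural progenitors, was at 56.9 and 65.4 against 29.8 and 29.0 (log2 fold change 1.03, limma adjusted p = 3.76e-05). Des, the type III filament gene of muscle, was the one that fell, at 0.721 and 0.585 against 8.82 and 7.19. Des passed the filter through the glands alone, so it could only be lower.

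Markers of other cell types were also counted. All 10 tested neural progenitor markers and all 10 neuron markers were higher in the placodes, where 35.7% of all tested features were. The summed FPKM of the 11 neural progenitor markers was 869 and 888 in placodes versus 67.0 and 59.1 in SMGs, and none of these markers was at 0 in the placodes. Of the 10 neural progenitor markers tested, 4 had an SMG mean below 1 FPKM and passed the filter through the placodes alone, as did 2 of the neuron markers. The 10 endothelial markers summed to 19.9 and 18.2 against 185 and 195. The 4 with a mean of at least 1 FPKM in both groups were called lower, where 40.4% of all tested features were. The 10 macrophage markers summed to 1.87 and 2.17 against 32.9 and 29.5, and 5 of them were listed at 0 in both placode samples. Of the 7 macrophage markers tested, 6 had a placode mean below 1 FPKM and could only be lower, and the remaining one was Csf1r, at 1.68 and 1.99 against 4.23 and 3.93. The 8 skeletal muscle markers summed to 10.8 and 10.9 against 164 and 109, with Myog and Chrna1 listed at 0 in both placode samples, and 5 of the 6 tested passed the filter through the glands alone. Of 5 smooth muscle markers, 2 were tested, 1 was lower and 1 was not called, with sums of 11.9 and 10.9 against 40.1 and 30.2. The part of these cell types in the levels of the 9 genes was not tested.

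Neural crest, which uses Snai2, Twist1 and Zeb2 when it leaves the neural tube, was represented by 10 markers of crest and Schwann precursors. Of these, 7 were lower in the placodes, 2 were higher and 1 was not called, where 40.4% and 35.7% of all tested features were lower and higher. Of the 8 with a mean of at least 1 FPKM in both groups, 6 were lower and 1 was higher, and none of the 10 was listed at 0 in both samples of a group. Their summed FPKM was 178 and 177 in placodes versus 121 and 114 in SMGs, with Ednrb alone at 117 and 115 versus 10.5 and 10.9. Sox10, the defining factor of crest and Schwann precursors, stood at 2.00 and 1.58 FPKM in placodes versus 19.1 and 16.7 FPKM in SMGs (log2 fold change -2.76, standard error 0.11, limma adjusted p = 3.63e-06). Pax3 and Ednrb, which the dorsal neural tube or neural progenitors also express, were higher, by 3.95 (adjusted p = 6.12e-07) and 3.32 (adjusted p = 1.55e-07) on the log2 scale. Pax3 had an SMG mean of 0.390 FPKM and passed the filter through the placodes alone, so it could only be higher. The part of the neural crest in these levels was not tested.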

How the data were processed

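Values came from RNA-seq of 2 placode and 2 SMG samples. HISAT2 is the aligner named, and the authors deposited 1 FPKM value per feature and sample. The program that computed FPKM, the annotation and whether strand was used are not given in the sources used here, and the submitters' processing notes name GRCm38 beside the human build GRCh38. Of 22036 Ensembl genes, 22022 were found in GENCODE M21 (GRCm38), the source of gene coordinates and exon overlaps. No read counts are given with these values, so depth is unknown.

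FPKM was transformed as log2(FPKM + 1). Features whose mean reached 1 FPKM, 13193 in all, entered limma (version 3.58.1, R version 4.3.3; lmFit, eBayes with trend, group as the only term), two-sided, with Benjamini-Hochberg adjustment over all of them. A call is an adjusted p below 0.05, and a 2-fold call also needs a change of 1 or more on the log2 scale, up or down. Values on that scale understate the change of low genes. Exact permutation tests of paralogue ratios and figures used Python 3.11.15.

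The genes and the 15 lists were chosen with earlier results of these data known. The rule for named genes took all 9 genes, the 3 nearest profiles of 4 of them, the partners Tcf3, Tcf4, Tcf12, Id1, Id2, Id3, Id4, Ctbp1, Ctbp2, Kdm1a, Cdh1, Cdh2, Epcam, Fn1, Pdgfra, Nes, Des and Sox10, and of each list the 2 highest and 2 lowest log2 fold changes and any gene at 0 in 1 group with a mean of at least 1 FPKM in the other. Not all genes it allows are printed where a count serves. Cldn4, Esrp1, Rab25, Smad2, Smad4, Snai3, Tbx15 and Tcf15 lie outside it and were chosen after their values were seen, and other epithelial genes and Sparc are named for their promoters. Promoter sequences are RefSeq's on GRCm38.p6. No protein sequence was used. Alternatives changed 1 choice at a time: pseudocount, scaling, the FPKM minimum, the replicate number as a block, eBayes settings and each sample left out.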

Additional observations from a re-analysis of the deposited data

How the results depend on the processing

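Each of the 9 genes was refitted under 16 alternatives, and its direction was kept in all of them. The number lower in the placodes was 6 and the number at least 2-fold lower was 6 throughout, and the number higher was 2 to 3. The single lost call was Vim without placode sample 1. Log2 fold changes of Prrx1 lay between -4.89 and -4.52, of Snai2 between -3.78 and -2.92, of Twist1 between -1.58 and -1.44 and of Zeb1 between 0.59 and 0.74. Rescaling to an equal sum moved the median of all features by 0.06. The correlation of deviations between same-numbered samples was -0.03, so the numbers show no pairing. With the replicate number as a block, the log2 fold change of Vim was 0.26 (limma adjusted p = 9.11e-03), and 10043 features were called in place of 10049. Leaving out 1 sample moved the paralogue differences to between -3.26 and -3.16 for Prrx1 to Prrx2, -2.01 and -1.31 for Snai2 to Snai1, 0.34 and 0.52 for Twist1 to Twist2 and 0.07 and 0.13 for Zeb2 to Zeb1, where a lone sample was set against 2. With the block, the signs of the differences between same-numbered samples were flipped in place of a permutation of labels. The exact p of this sign-flip test was 0.5 for each, the smallest value that 2 differences allow. The number of corepressor genes at least 2-fold higher was 2 with equal-sum or median-ratio scaling. The number of corepressor genes called higher was 8 with eBayes without trend, in place of 11. It was 9 with the replicate number as a block, with quantile normalization or with no filter on mean FPKM. It was also below 11 whenever a sample was left out. Leaving out the assembled loci, added after the data were seen, changed no call of the 9 genes. FPKM without counts gives no detection floor, so a value listed at 0 is not shown to be absent.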
